A study of Sus scrofa with 6 samples.

Results

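Oxidative phosphorylation in the pig oviduct was examined through 43 listed genes of the nucleus that encode subunits of respiratory chain complexes I to IV and of the ATP synthase, complex V. The members were taken by gene symbol from a table of 35670 genes. They were chosen with earlier results of these data known, so the summaries of them below are descriptions. Of the 43, 40 had a row, and NDUFB3, UQCRH and ATP5F1B were not analysed here. The 40 genes comprise 17 subunits of complex I, 4 of complex II, 5 of complex III, 8 of complex IV and 6 of complex V, with NDUFA4 counted as the complex IV subunit that it is now held to be. RNA came from the ampulla, the wide upper segment of the oviduct where sperm and egg meet, of female pigs (Sus scrofa). There were 3 early luteal libraries and 3 post-ovulatory libraries, and early luteal was compared with post-ovulatory tissue. The labels give no breed, age or treatment for either stage. They leave unsaid whether a stage's 3 replicates are 3 animals, and p-values therefore reflect the scatter of these libraries, part or all of which may be technical. The tissue was bulk ampulla with no cell type sorted out, so a gene expressed in fewer cells and a gene with less RNA per cell cannot be told apart.

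Complexes I and II pass electrons from NADH and succinate to ubiquinone, complex III passes them on to cytochrome c, and complex IV gives them to oxygen. Complexes I, III and IV move protons across the inner mitochondrial membrane as they do so, and complex V uses the return of the protons to make ATP. Complex II is encoded wholly in the nucleus, whereas each of the other complexes is built from nuclear subunits and from a few subunits encoded by mitochondrial DNA. In the oviduct, ATP drives the beating of cilia, secretion and muscle contraction.

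Library totals were between 7370723 and 30954222 counts, and a count of 3, the floor used here, corresponded to 0.0957 to 0.405 CPM (counts scaled to a common library total, with library composition taken into account). Floors cover counting error only. All 40 members passed the filter on low counts, which left 17920 genes to test, so their numbers below are those of every member with a row. The lowest member count in a library was 3 (ATP5MC1, early luteal replicate 2), and in the other 5 libraries no member fell under 75 counts. The oviduct marker genes FOXJ1, a ciliary transcription factor, and OVGP1, the oviduct-specific glycoprotein, were detected in all 6 libraries. FOXJ1 stood at 412, 79.1 and 408 CPM in the early luteal libraries, against 652, 199 and 428 CPM in the post-ovulatory libraries. OVGP1 stood at 291, 1015 and 2350 CPM in early luteal tissue, against 7283, 156 and 10661 CPM in post-ovulatory tissue, so its level varied widely within each stage.

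No subunit differed between the stages past the threshold, although most mean levels were somewhat lower in early luteal ampulla. Of the 40 members, 30 (75.0%) had a log2 fold change below 0, where 51.8% of all tested genes did. In 22 members the fold change was below 0 with any one library left out, and in 2 it was above 0 each time. The same shares over all tested genes were not computed. The median log2 fold change of the members, early luteal over post-ovulatory, was -0.20 (quartiles -0.47 and -0.004), and that of all tested genes was -0.03. The single values ran from -1.13 for ATP5MC1, a c-ring subunit of complex V, to 0.53 for COX7C, a small subunit of complex IV. Among the 9986 tested genes whose mean level lay in the range of the members (10.9 to 254 CPM), the median was -0.05 and 54.2% lay below 0.

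edgeR's quasi-likelihood test with Benjamini-Hochberg adjustment over all tested genes called 0 of the 40 members at an adjusted p of 0.05, and 0% of all 17920 genes. Adjusted p-values of the members lay between 0.685 and 0.994. At an unadjusted p under 0.05, 2 members were counted, NDUFA1 and COX7A2, both lower in early luteal tissue and none higher. Of all tested genes 3.54% were counted as lower, 3.57% as higher and 7.11% in either direction. DESeq2 called 0 members at its adjusted p (lowest 0.464; 1.03% of all genes called) and counted 2 at an unadjusted p under 0.05, against 9.76% of all genes in either direction and 4.68% as lower. limma voom called 0 members as well (0% of all genes called) and counted 1 at an unadjusted p under 0.05 (7.13% of all genes). With sample quality weights it called 0 members, against 0.0502% of all genes. In 6 members (15.0%), NDUFA1, NDUFA9, CYC1, COX5A, COX5B and COX7A2, all 3 early luteal libraries lay below all 3 post-ovulatory libraries, which 9.57% of all tested genes did. In 1 member, SDHD, all early luteal libraries lay above all post-ovulatory libraries, as did 7.61% of all tested genes. The standard errors of the members had a median of 0.31 on the log2 scale, against 0.48 for all tested genes. That comparison was not matched for level.

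**Figure D1:**
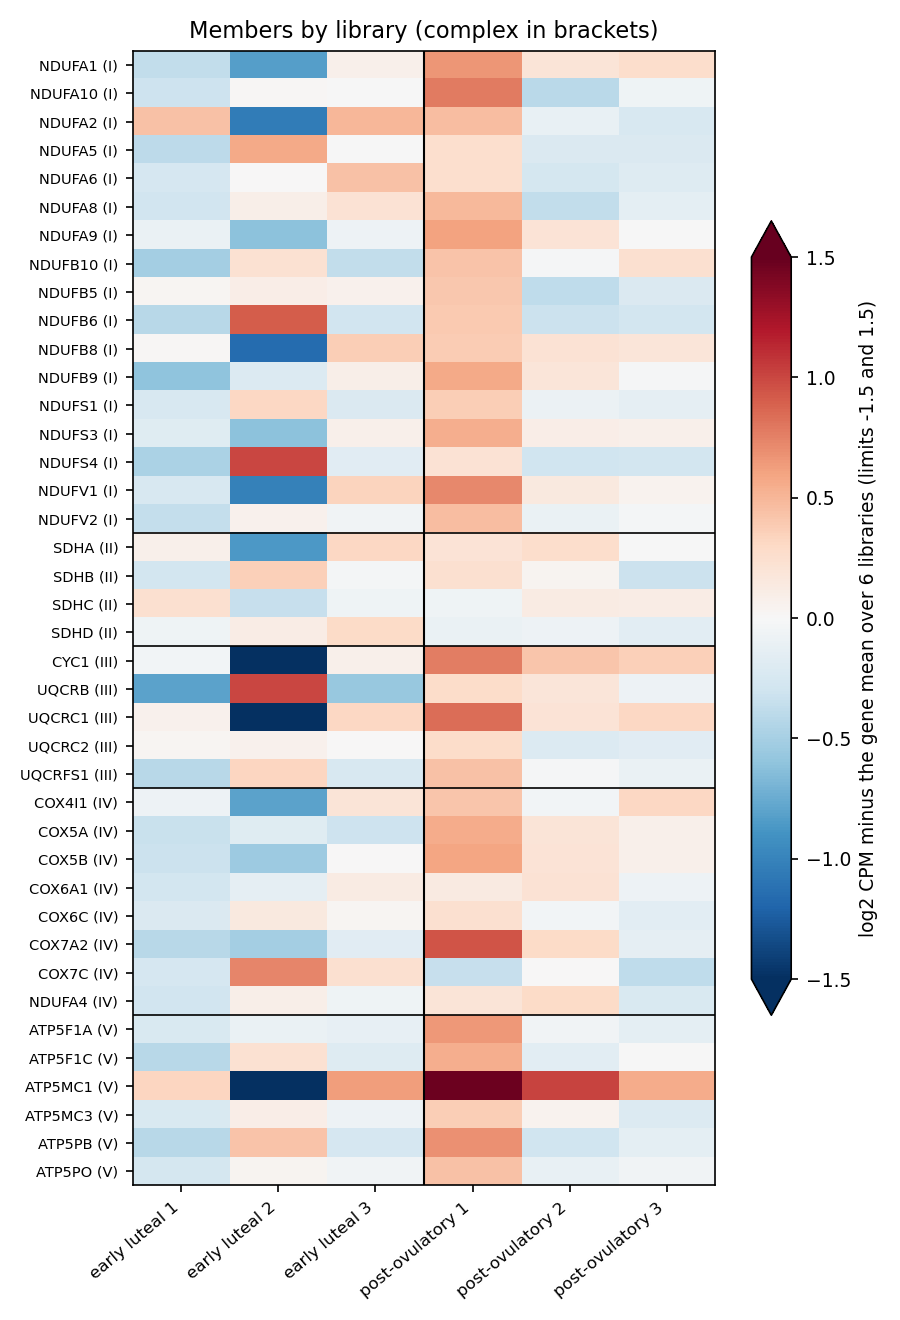
Level of each of the 40 members (rows, grouped by complex) in each library (columns, early luteal left), as log2 CPM minus the gene's mean over the 6 libraries, with colours limited to -1.5 and 1.5. Post-ovulatory replicate 1 holds the highest level of 27 members, and early luteal replicate 2 holds both the lowest level of 14 members and the highest of 6.

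The summary rested in part on post-ovulatory replicate 1. That library held the highest level of 27 of the 40 members (67.5%), where it held the highest of 20.3% of all tested genes. Against the mean of the other 5 libraries, its members stood a median of 0.52 higher on the log2 scale, with 37 of 40 above 0, while genes in the same range of levels stood 0.12 higher. Without this library the median log2 fold change of the members was -0.05, and 24 of 40 lay below 0. The median of all tested genes was then -0.03, so little of the members' difference from all genes remained. Early luteal replicate 1 held the lowest level of 18 members (45.0%), against 11.3% of all tested genes. Its members stood a median of 0.31 below the other libraries (log2 deviation -0.31), while genes in the same range of levels stood 0.008 higher.

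Early luteal replicate 2 was the most uneven library for the subunits. It held the lowest level of 14 members and the highest of 6, where it held the lowest of 39.4% and the highest of 27.0% of all tested genes. The SD over the members of their log2 deviation from the other 5 libraries was 1.06 there, against 0.29 and 0.30 in early luteal replicates 1 and 3 and 0.37, 0.32 and 0.25 in post-ovulatory replicates 1 to 3. Genes in the same range of levels were uneven in that library too (SD 1.16, against 0.48 to 0.70 in the other 5). In it, 7 members stood more than 1 log2 unit below the other libraries, namely ATP5MC1 (-4.78), UQCRC1 (-2.07), CYC1 (-1.89), NDUFB8 (-1.38), NDUFA2 (-1.26), NDUFV1 (-1.22) and SDHA (-1.03). Another 3 stood more than 1 unit above, namely UQCRB (1.21), NDUFS4 (1.20) and NDUFB6 (1.09). Without early luteal replicate 2 the median log2 fold change of the members was -0.28 and 32 of 40 lay below 0, against 49.4% of all genes tested in that fit. In that fit 0 members were called by edgeR at the adjusted threshold (lowest adjusted p 0.586) and 4 were counted as lower at an unadjusted p under 0.05, against 4.22% of all genes tested.

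Complex I takes electrons from NADH in a hydrophilic arm that reaches into the matrix and pumps protons in a membrane arm. Of its 17 measured members, 11 had a log2 fold change below 0, with a median of -0.24 that became 0.07 without post-ovulatory replicate 1. The 9 members of the hydrophilic arm had a median of -0.09 (5 below 0) and the 8 of the membrane arm a median of -0.33 (6 below 0). Without early luteal replicate 2 the medians were -0.27 (7 of 9 below 0) in the hydrophilic arm and -0.34 (7 of 8) in the membrane arm. Without post-ovulatory replicate 1 they were 0.07 (4 of 9) and -0.10 (4 of 8). No member of either arm was called.

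NDUFA1, a small membrane-arm subunit needed for assembly of the complex, stood at 35.5, 25.8 and 48.3 CPM in early luteal libraries, against 72.6, 52.5 and 55.1 CPM in post-ovulatory libraries. Every early luteal library thus lay below every post-ovulatory one, with means of 36.5 ± 11.3 CPM in early luteal libraries and 60.1 ± 10.9 CPM in post-ovulatory libraries (SD, n = 3 each). This gave a log2 fold change of -0.72 ± 0.31 (SE) and an edgeR adjusted p of 0.685. NDUFA9, an accessory subunit of the hydrophilic arm near the junction of the arms, stood at 28.5, 19.9 and 29.0 CPM in early luteal tissue, against 46.7, 35.1 and 30.4 CPM in post-ovulatory tissue. The stages did not overlap, but the gap between early luteal replicate 3 and post-ovulatory replicate 3 was narrow (log2 fold change -0.53 ± 0.31, edgeR adjusted p = 0.726).

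NDUFB9, a membrane-arm subunit, stood at 37.5, 49.2 and 60.4 CPM in early luteal libraries, against 84.3, 64.4 and 56.0 CPM in post-ovulatory libraries. Here early luteal replicate 3 exceeded post-ovulatory replicate 3, and the log2 fold change was -0.48 ± 0.29 (edgeR adjusted p = 0.736). NDUFV2, an iron-sulphur subunit of the part that oxidises NADH, stood at 65.5, 87.8 and 80.8 CPM in early luteal libraries, against 115, 78.5 and 82.4 CPM in post-ovulatory libraries. The stages overlapped apart from the high post-ovulatory replicate 1, and the log2 fold change was -0.24 ± 0.26 (edgeR adjusted p = 0.845).

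The other members of complex I are described from their values. NDUFV1, which binds NADH, stood at 25.6, 14.9 and 38.0 CPM in early luteal tissue, against 49.9, 33.4 and 31.4 CPM in post-ovulatory tissue, and its log2 fold change of -0.54 became -0.27 without early luteal replicate 2. NDUFS3, a core subunit of the arm that hands electrons to ubiquinone, had a log2 fold change of -0.47, and the membrane-arm subunits NDUFB10, NDUFB8 and NDUFA10 had -0.41, -0.38 and -0.29. The fold change of NDUFA10 turned to 0.11 without post-ovulatory replicate 1, in which it stood at 72.0 CPM against 31.8 to 42.4 CPM in the other 5 libraries. NDUFS1, the largest iron-sulphur subunit, and NDUFA8 lay near 0 (-0.09 and -0.02). The remaining 6 members, NDUFA2, NDUFB5, NDUFA6, NDUFA5, NDUFB6 and NDUFS4, lay above 0, between 0.06 and 0.36.

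NDUFS4, a hydrophilic-arm subunit that stabilises the NADH-oxidising part, stood at 47.0, 130 and 57.9 CPM in early luteal libraries, against 76.0, 53.2 and 54.0 CPM in post-ovulatory libraries. Its log2 fold change of 0.36 came with the one high library and was -0.22 without early luteal replicate 2. The log2 fold change likewise changed sign in NDUFB6 (0.22 with that library, -0.33 without it) and NDUFA5 (0.16 with it, -0.14 without it).

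**Figure D2:**
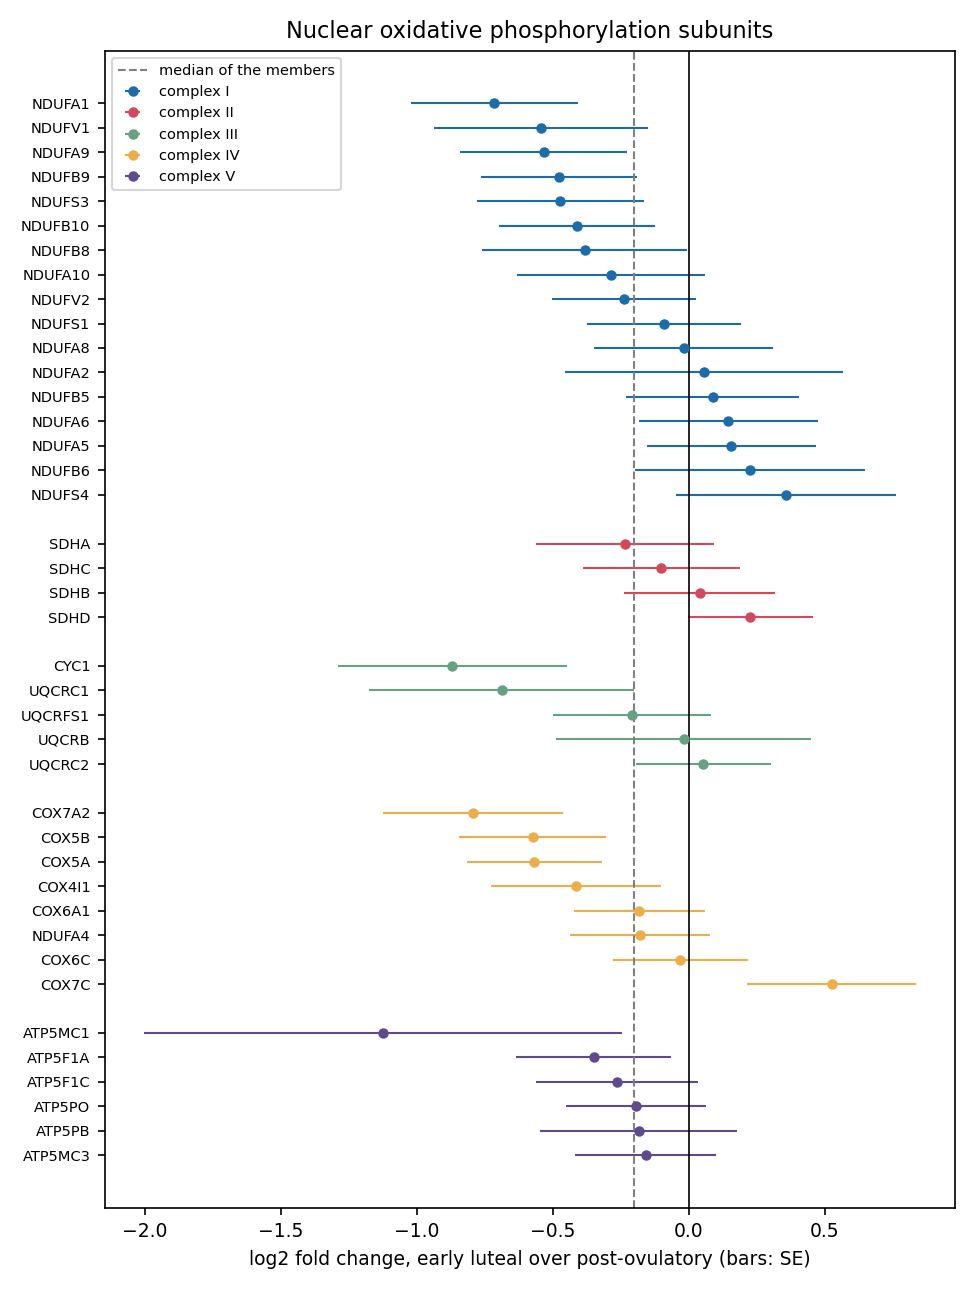
Log2 fold change of each member, early luteal over post-ovulatory (points, with SE as bars), coloured by complex and ordered within it, with a dashed line at the members' median of -0.20. The points run from -1.13 (ATP5MC1, with the widest bar) to 0.53 (COX7C), and 30 of 40 lie left of 0.

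Complex II, which is also the succinate dehydrogenase of the citrate cycle, had 2 members below 0 and 2 above, with a median log2 fold change of -0.03. SDHD, one of the pair of membrane anchors that hold haem and ubiquinone, stood at 108, 122 and 138 CPM in early luteal libraries, against 106, 107 and 101 CPM in post-ovulatory libraries. All 3 early luteal libraries lay above all 3 post-ovulatory libraries, by a narrow margin at the closest pair, and the log2 fold change was 0.23 ± 0.23 (edgeR adjusted p = 0.828). SDHC, the other anchor, stood at 33.0, 21.9 and 26.7 CPM in early luteal tissue, against 26.8, 30.5 and 30.3 CPM in post-ovulatory tissue. Its stages overlapped (log2 fold change -0.10 ± 0.29, edgeR adjusted p = 0.945), and the value was 0.03 without early luteal replicate 2.

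SDHA, the flavoprotein that oxidises succinate, stood at 60.0, 31.4 and 70.5 CPM in early luteal libraries, against 65.7, 68.5 and 56.6 CPM in post-ovulatory libraries. Early luteal replicate 2 alone was low, and the log2 fold change was -0.23 ± 0.33 with it (edgeR adjusted p = 0.877) and 0.04 without it. SDHB, the iron-sulphur subunit that passes electrons to the anchors, stood at 59.6, 91.9 and 70.5 CPM in early luteal tissue, against 84.9, 73.7 and 57.3 CPM in post-ovulatory tissue. In early luteal replicate 2 SDHB was thus the highest of its 6 values while SDHA was the lowest of its own.

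In complex III, 4 of 5 members had a log2 fold change below 0, with a median of -0.21 that was -0.45 without early luteal replicate 2 and -0.04 without post-ovulatory replicate 1. CYC1, cytochrome c1, which hands electrons to cytochrome c, stood at 37.0, 12.7 and 40.1 CPM in early luteal libraries, against 64.7, 51.0 and 48.9 CPM in post-ovulatory libraries. The stages did not overlap, with means of 29.9 ± 15.0 CPM in early luteal libraries and 54.9 ± 8.58 CPM in post-ovulatory libraries (SD, n = 3 each). The log2 fold change was -0.87 ± 0.42 (edgeR adjusted p = 0.692) and -0.51 without early luteal replicate 2, in which CYC1 was lowest. UQCRC1, one of the large core proteins on the matrix side, stood at 36.2, 10.4 and 43.0 CPM in early luteal tissue, against 61.9, 40.1 and 43.0 CPM in post-ovulatory tissue. Its stages overlapped, and the log2 fold change was -0.69 ± 0.49 (edgeR adjusted p = 0.769), or -0.29 without early luteal replicate 2.

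UQCRFS1, the Rieske iron-sulphur protein, stood at 62.3, 103 and 70.5 CPM in early luteal libraries, against 113, 82.3 and 77.7 CPM in post-ovulatory libraries. Its high value in early luteal replicate 2 brought the stages to overlap (log2 fold change -0.21 ± 0.29, edgeR adjusted p = 0.877). UQCRB, a small subunit beside the ubiquinone site, stood at 36.4, 128 and 42.8 CPM in early luteal tissue, against 77.2, 71.9 and 60.2 CPM in post-ovulatory tissue. Early luteal replicates 1 and 3 were the lowest of the 6 libraries and replicate 2 the highest. The log2 fold change was therefore -0.02 with that library and -0.82 without it (edgeR adjusted p = 0.994 and 0.586). UQCRC2, the second core protein, had a log2 fold change of 0.05.

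Complex IV, cytochrome c oxidase, held 7 of 8 members below 0, with a median log2 fold change of -0.30, and 3 of the 6 members whose early luteal libraries lay wholly below the post-ovulatory libraries. COX7A2, a small subunit of the widely expressed type, stood at 29.8, 28.1 and 35.4 CPM in early luteal libraries, against 76.9, 48.6 and 36.4 CPM in post-ovulatory libraries. The early luteal values lay close together at 31.1 ± 3.82 CPM, and the post-ovulatory values were spread at 54.0 ± 20.8 CPM (SD, n = 3 each). The log2 fold change was -0.79 ± 0.33 (edgeR adjusted p = 0.685), and -0.46 without post-ovulatory replicate 1. COX5A, a subunit on the matrix side, stood at 41.1, 45.9 and 41.7 CPM in early luteal tissue, against 76.4, 59.5 and 54.9 CPM in post-ovulatory tissue. COX5A did not overlap between the stages and was even within early luteal tissue, replicate 2 included (log2 fold change -0.57 ± 0.25, edgeR adjusted p = 0.685).

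COX5B, the zinc-binding subunit, stood at 56.5, 48.4 and 71.4 CPM in early luteal libraries, against 107, 81.5 and 74.4 CPM in post-ovulatory libraries. Its stages did not overlap, narrowly at the closest pair, and the log2 fold change was -0.57 ± 0.27 (edgeR adjusted p = 0.685). COX7C stood at 160, 317 and 225 CPM in early luteal tissue, against 150, 191 and 147 CPM in post-ovulatory tissue. COX7C was the 1 member of complex IV above 0, with early luteal replicate 1 inside the post-ovulatory range (log2 fold change 0.53 ± 0.31, edgeR adjusted p = 0.736, or 0.24 without early luteal replicate 2). COX4I1, a regulatory subunit, COX6A1, NDUFA4 and COX6C had log2 fold changes of -0.41, -0.18, -0.18 and -0.03, and their stages overlapped.

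In complex V all 6 measured members had a log2 fold change below 0, with a median of -0.23 that was -0.02 without post-ovulatory replicate 1. ATP5F1A, the alpha subunit of the catalytic head, stood at 144, 157 and 155 CPM in early luteal libraries, against 265, 163 and 153 CPM in post-ovulatory libraries. Post-ovulatory replicate 1 alone was high, and the log2 fold change was -0.35 ± 0.29 with it (edgeR adjusted p = 0.792) and -0.07 without it. ATP5F1C, the gamma subunit that turns inside the head, stood at 96.2, 151 and 112 CPM in early luteal tissue, against 188, 115 and 128 CPM in post-ovulatory tissue. Its log2 fold change was -0.26 ± 0.30 (edgeR adjusted p = 0.848) and -0.04 without post-ovulatory replicate 1.

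ATP5PB, subunit b of the outer stalk, stood at 183, 327 and 204 CPM in early luteal libraries, against 392, 198 and 221 CPM in post-ovulatory libraries. One library of each stage was high, and the log2 fold change of -0.18 ± 0.36 (edgeR adjusted p = 0.916) was 0.17 without post-ovulatory replicate 1. ATP5MC1, one of 3 genes for the membrane c-ring through which protons pass, stood at 10.5, 0.405 and 13.0 CPM in early luteal tissue, against 23.5, 17.0 and 12.4 CPM in post-ovulatory tissue. The low value rests on 3 counts in early luteal replicate 2, against 164 to 388 in the libraries other than post-ovulatory replicate 2, which had 135. With all libraries the log2 fold change was -1.13 ± 0.88 (edgeR adjusted p = 0.782), and -0.58 without early luteal replicate 2. ATP5MC3, another c-ring gene, and ATP5PO, which joins stalk and head, had log2 fold changes of -0.16 and -0.20, each -0.01 without post-ovulatory replicate 1.

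Summed over its members, no complex separated the stages. Complex I summed to 598, 803 and 749 CPM in early luteal libraries, against 1018, 706 and 721 CPM in post-ovulatory libraries. Complex III summed to 226, 311 and 250.4 CPM in early luteal tissue, against 381, 292 and 277 CPM in post-ovulatory tissue. Complex V summed to 571, 805 and 641 CPM in early luteal tissue, against 1085, 650 and 666 CPM in post-ovulatory tissue. In these 3 complexes the highest sum was that of post-ovulatory replicate 1 and the lowest that of early luteal replicate 1. Complex IV averaged 809.8 ± 95.2 CPM in early luteal libraries and 881 ± 95.8 CPM in post-ovulatory libraries, while complex II averaged 278 ± 24.5 CPM in early luteal libraries and 269.5 ± 20.9 CPM in post-ovulatory libraries (SD, n = 3 each).

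The log2 ratio of the mean sums, early luteal over post-ovulatory, was -0.19 for complex I, 0.04 for complex II, -0.27 for complex III, -0.12 for complex IV and -0.25 for complex V. Without post-ovulatory replicate 1, and with the scaling computed anew for the other 5 libraries, the ratios of complexes I and V were -0.007 and 0.02, and that of complex IV was -0.05. The ratio of complex II was -0.04 without early luteal replicate 3. Complex I made up 26.1 ± 0.635% of the members' summed CPM in early luteal libraries and 26.4 ± 1.01% in post-ovulatory libraries, and complex V made up 24.5 ± 1.90% in early luteal libraries and 25.6 ± 2.98% in post-ovulatory libraries (SD, n = 3 each). The share of complex II was 10.2 ± 1.25% in early luteal libraries and 8.88 ± 1.24% in post-ovulatory libraries, with overlapping ranges (8.78% to 11.05% in early luteal, 7.55% to 10.01% in post-ovulatory libraries). All members together took 0.261% to 0.288% of the counts in early luteal libraries, against 0.274% to 0.343% in post-ovulatory libraries.

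**Figure D3:**
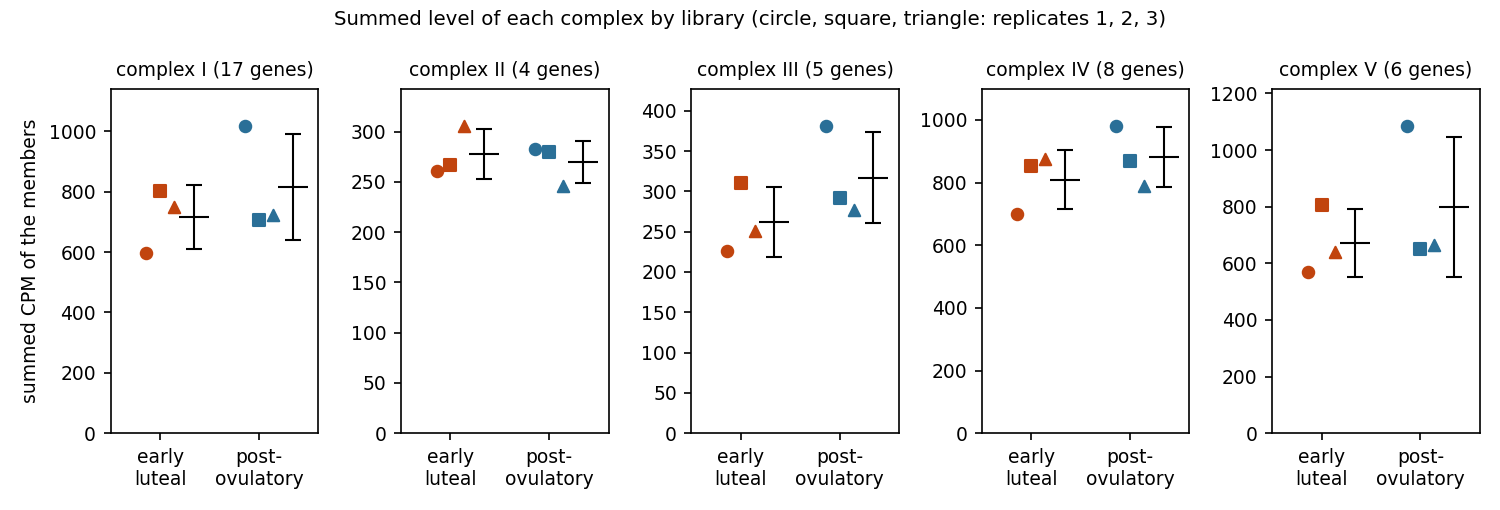
Summed CPM of the measured members of complexes I to V in each library, early luteal left and post-ovulatory right, with the mean and SD of the 3 libraries beside the points. In complexes I, III, IV and V the highest point is post-ovulatory replicate 1, and in every complex the stages overlap.

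The 13 subunits encoded by mitochondrial DNA were read from the same fit. Of them, 11 had a log2 fold change below 0, with a median of -0.26, and 0 had an unadjusted p under 0.05. Their summed level was 38756, 85037 and 34053 CPM in early luteal libraries, against 75588, 42408 and 57838 CPM in post-ovulatory libraries. The highest of the 6 sums was thus early luteal replicate 2, whereas the nuclear members were highest in post-ovulatory replicate 1 (2356, 3040 and 2820 CPM in early luteal tissue, against 3749, 2798 and 2699.9 CPM in post-ovulatory tissue). Counts of the mitochondrially encoded subunits were 16.4, 28.0 and 12.1 times those of the nuclear members in early luteal libraries, against 20.2, 15.2 and 21.4 times in post-ovulatory libraries. The means were 18.8 ± 8.21 in early luteal and 18.9 ± 3.31 in post-ovulatory libraries (SD, n = 3 each), and the log2 ratio of these means was -0.006, or -0.41 without early luteal replicate 2.

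Without early luteal replicate 2 all 13 mitochondrially encoded subunits lay below 0 with a median log2 fold change of -0.90, and 9 were counted as lower at an unadjusted p under 0.05, against 4.22% of all genes tested. None of the 13 was called in that fit by edgeR (lowest adjusted p 0.586; 0% of all genes called). Without post-ovulatory replicate 1 the median was -0.10, with 8 of 13 below 0, and without early luteal replicate 1 it was 0.04. ND1, a core proton-pumping subunit of complex I, stood at 600.2, 1695 and 538 CPM in early luteal tissue, against 1245, 851 and 1306 CPM in post-ovulatory tissue. ATP6, the complex V subunit that carries protons past the c-ring, stood at 5992, 14520 and 5650 CPM in early luteal libraries, against 14302, 7035 and 12475 CPM in post-ovulatory libraries. In both genes early luteal replicates 1 and 3 lay below every other library. COX1, a core subunit of complex IV, stood at 11934, 20706 and 9537 CPM in early luteal tissue, against 16795, 9538 and 9129 CPM in post-ovulatory tissue. COX1 did not share that order (log2 fold change 0.25), and ND5, another complex I subunit, also had a log2 fold change above 0 (0.06). COX1 had the highest mean level of the 13, and ND1, ATP6 and ND5 were picked after their values had been seen. The genes with the lowest edgeR p, COX3, CYTB and ND4L, had log2 fold changes of -0.46, -0.48 and -0.39. The libraries were made from polyadenylated RNA, so the level of mitochondrial transcripts also depends on how they were captured, which was not tested.

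**Figure D4:**
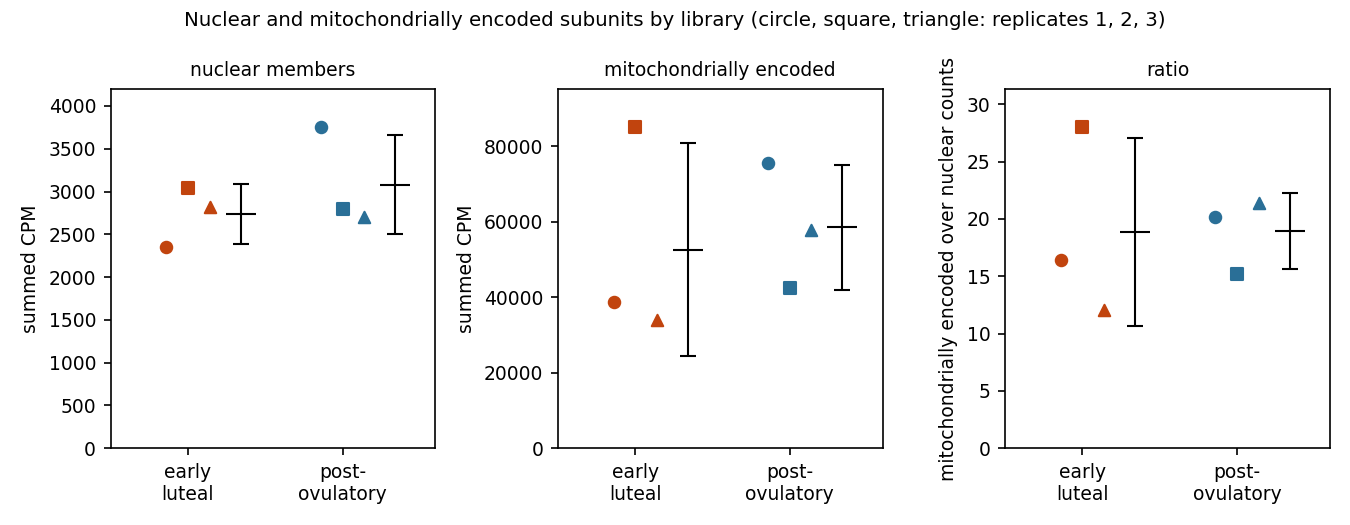
Summed CPM of the 40 nuclear members, summed CPM of the 13 mitochondrially encoded subunits, and the ratio of their counts in each library, early luteal left and post-ovulatory right, with mean and SD of the 3 libraries. Early luteal replicate 2 has the highest mitochondrially encoded sum (85037 CPM) and ratio (28.0), and post-ovulatory replicate 1 the highest nuclear sum (3749 CPM).

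Nuclear subunits of complexes I, III, IV and V outside the 43 listed genes gave a smaller difference. Of 36 such genes 27 had a row, 17 of the 27 had a log2 fold change below 0, and the median was -0.09. The median was -0.17 with 24 below 0 when early luteal replicate 2 was left out, and 0.0001 with 13 below 0 when post-ovulatory replicate 1 was left out. None of the 27 was called. NDUFA13, a membrane-arm subunit of complex I, stood at 32.3, 24.7 and 34.8 CPM in early luteal libraries, against 44.3, 37.3 and 36.8 CPM in post-ovulatory libraries, with no overlap (log2 fold change -0.37 ± 0.27, edgeR adjusted p = 0.778). ATP5F1D, the delta subunit of the complex V head, stood at 29.2, 4.05 and 35.9 CPM in early luteal tissue, against 48.6, 36.2 and 33.0 CPM in post-ovulatory tissue. As with ATP5MC1 the low value was that of early luteal replicate 2, and the log2 fold change of -0.76 ± 0.64 (edgeR adjusted p = 0.798) was -0.27 without it.

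Of 7 tested subunit isoforms and relatives, only some of which are restricted to particular tissues, 0 were called and 4 lay below 0. COX7A1, the isoform of COX7A2 in heart and skeletal muscle, stood at 11.5, 6.89 and 20.0 CPM in early luteal libraries, against 10.9, 13.2 and 12.8 CPM in post-ovulatory libraries. COX4I2, the lung-type isoform of COX4I1, stood at 4.11, 11.6 and 21.4 CPM in early luteal tissue, against 6.68, 16.6 and 5.52 CPM in post-ovulatory tissue. Both overlapped between the stages and varied more within a stage than between the means. COX6B2, known from the testis, stood at 1.41, 0 and 0.464 CPM in early luteal libraries, against 2.23, 2.02 and 2.01 CPM in post-ovulatory libraries. The stages of COX6B2 did not overlap (log2 fold change -1.65 ± 1.001, edgeR adjusted p = 0.736), and its 0 counts in early luteal replicate 2 allow up to 0.405 CPM.

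Assembly factors and electron carriers had medians near that of all genes, with single genes farther from 0. Of 45 tested assembly factors 24 lay below 0 (median log2 fold change -0.05). UQCC2, which helps to build complex III, stood at 16.1, 11.08 and 19.6 CPM in early luteal libraries, against 49.0, 30.4 and 28.9 CPM in post-ovulatory libraries. The stages of UQCC2 did not overlap (log2 fold change -1.21 ± 0.36, edgeR adjusted p = 0.649; DESeq2 adjusted p = 0.120). CMC1, a complex IV assembly factor, had the higher early luteal level of 17.8, 37.6 and 15.9 CPM, against 12.6, 15.6 and 14.6 CPM in post-ovulatory libraries, with no overlap (log2 fold change 0.73 ± 0.41, edgeR adjusted p = 0.723). Of 16 genes for ubiquinone synthesis, cytochrome c and other electron donors to the chain, 8 lay below 0, with a median of -0.003. CYCS, cytochrome c itself, stood at 40.7, 88.2 and 88.2 CPM in early luteal tissue, against 138, 96.6 and 70.8 CPM in post-ovulatory tissue, and overlapped.

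The citrate cycle and pyruvate dehydrogenase, which feed the chain with NADH and succinate, held 14 of 19 tested genes below 0, with a median log2 fold change of -0.29. That median was -0.15 without post-ovulatory replicate 1 (12 of 19 below 0), -0.16 without early luteal replicate 1 and -0.50 without post-ovulatory replicate 2. PDHB, a subunit of the pyruvate dehydrogenase complex, stood at 54.3, 50.4 and 46.0 CPM in early luteal libraries, against 113, 72.9 and 91.2 CPM in post-ovulatory libraries. MDH2, the mitochondrial malate dehydrogenase, stood at 62.7, 95.3 and 87.0 CPM in early luteal tissue, against 207, 138 and 99.2 CPM in post-ovulatory tissue. Neither gene overlapped between the stages, with log2 fold changes of -0.88 ± 0.26 and -0.86 ± 0.33 (edgeR adjusted p = 0.649 and 0.685). In 25 tested genes for mitochondrial ribosomal proteins and protein import the median was -0.40 and 22 lay below 0. It was -0.26 without early luteal replicate 2 and -0.27 without post-ovulatory replicate 1. PHB1, a prohibitin of the inner membrane, stood at 50.2, 32.4 and 52.9 CPM in early luteal libraries, against 88.9, 67.5 and 61.6 CPM in post-ovulatory libraries (log2 fold change -0.68 ± 0.29, edgeR adjusted p = 0.685). The 17 tested genes for channels, carriers and cristae had a median of 0.01, with 8 below 0, and -0.20 without early luteal replicate 2. SLC25A6, an ADP/ATP carrier, stood at 188, 106 and 193 CPM in early luteal tissue, against 424, 253 and 280.1 CPM in post-ovulatory tissue, without overlap (log2 fold change -0.97 ± 0.34, edgeR adjusted p = 0.677).

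Of 21 tested regulators of mitochondrial biogenesis and genes that keep mitochondrial DNA, 10 lay below 0, with a median of 0.02. PPRC1, a coactivator related to PGC-1alpha, stood at 19.1, 20.1 and 24.3 CPM in early luteal libraries, against 39.5, 62.5 and 47.7 CPM in post-ovulatory libraries. Its highest early luteal value lay below its lowest post-ovulatory one (log2 fold change -1.24 ± 0.29). edgeR did not call PPRC1 (adjusted p = 0.568), whereas DESeq2 did (adjusted p = 0.0276, with 1.03% of all genes called). PPARGC1A, which encodes PGC-1alpha itself, stood at 5.08, 36.9 and 25.4 CPM in early luteal tissue, against 5.50, 7.05 and 6.15 CPM in post-ovulatory tissue. Early luteal replicate 1 was the lowest of the 6 and replicates 2 and 3 the highest, so the stages overlapped (log2 fold change 1.85 ± 0.66, edgeR adjusted p = 0.677). For comparison, 18 cytosolic ribosomal protein genes had a median of -0.15 (10 below 0), or 0.03 without early luteal replicate 2.

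**Figure D5:**
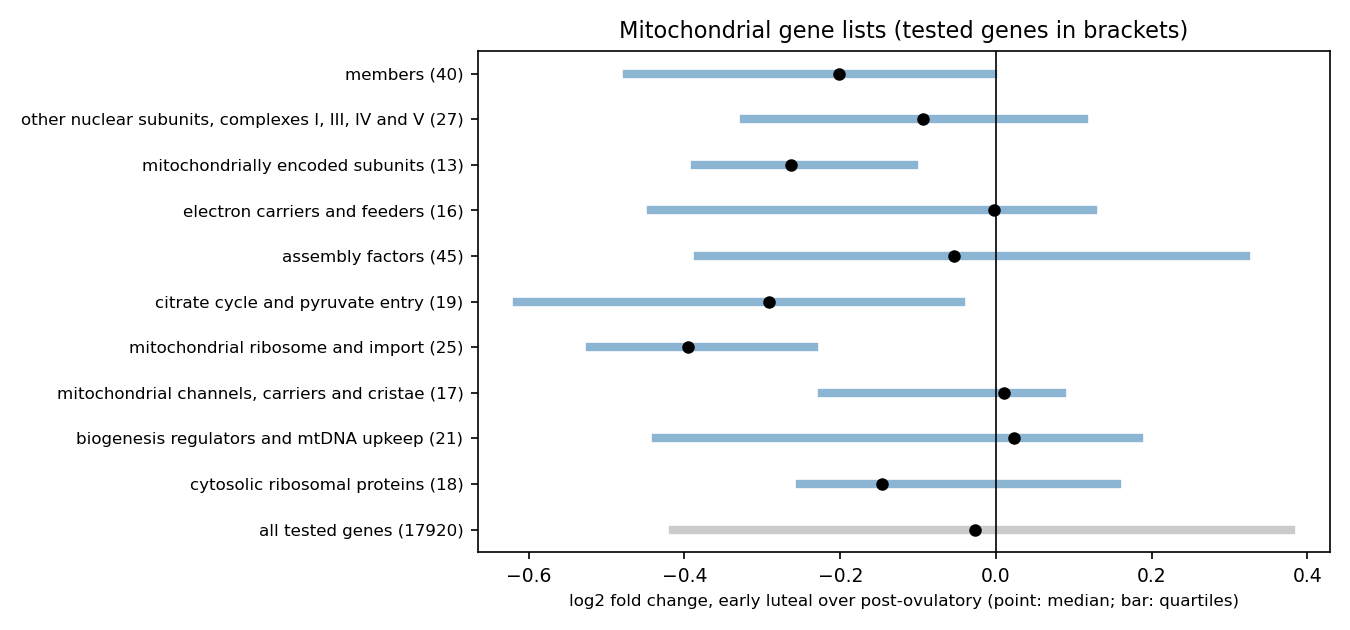
Median log2 fold change (points) and quartiles (bars), early luteal over post-ovulatory, for the members, the other mitochondrial gene lists, cytosolic ribosomal proteins and all tested genes, with the number of tested genes in brackets. The lowest medians are those of mitochondrial ribosome and import (-0.40) and of the citrate cycle (-0.29), against -0.03 for all tested genes.

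Markers of cell types in the ampulla also differed between libraries. The summed level of stromal markers did not overlap between the stages, by a narrow margin at the closest pair. The score of a list is its mean log2 CPM, centred per gene. The score of the members was -0.22, -0.23 and 0.03 in early luteal libraries, against 0.44, 0.02 and -0.04 in post-ovulatory libraries. The 15 tested ciliated cell markers scored 0.14, -0.35 and 0.16 in early luteal tissue, against 0.35, -0.42 and 0.12 in post-ovulatory tissue, with 9 of 15 below 0 in the log2 fold change and summed levels of 2638 to 2838 CPM in early luteal libraries and 1966 to 3405 CPM in post-ovulatory libraries. Without early luteal replicate 2, 5 of the 15 lay below 0, with a median of 0.12. Post-ovulatory replicate 1 had the highest member score. It also had the highest ciliated score and the highest score of the 7 tested secretory markers (0.46). The secretory markers were not uniform in post-ovulatory replicate 1. SLPI and LTF were at their highest there (2161 and 166 CPM), KRT7 and WFDC2 at their lowest (197 and 42.3 CPM), and OVGP1, C3 and EPCAM in between. Post-ovulatory replicate 2 had the lowest ciliated and secretory scores (-0.42 and -0.67), with a member score of 0.02. The summed level of secretory markers was highest in post-ovulatory replicate 3 (13193 CPM, against 11460.5 CPM in post-ovulatory replicate 1). Smooth muscle markers, all 8 above 0, scored -1.70, 0.63 and 1.38 in early luteal libraries, against -0.31, 0.46 and -0.46 in post-ovulatory libraries, and their summed level was 1083 to 9703 CPM in early luteal libraries and 2960.3 to 5653 CPM in post-ovulatory libraries. Their median log2 fold change was 0.63, or -0.18 without early luteal replicate 3. Early luteal replicate 1, in which most members were below the other libraries, was also the lowest in smooth muscle. Early luteal replicate 2 had a smooth muscle score of 0.63. Its member score of -0.23 was close to the -0.22 of early luteal replicate 1 and included ATP5MC1 at -3.99. In early luteal replicate 2, 22 of 40 members stood above the other libraries, against 8 of 40 in early luteal replicate 1.

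Leukocyte markers (11 of 11 tested below 0) summed to 52.5 to 396 CPM in early luteal libraries, against 80.7 to 669.5 CPM in post-ovulatory libraries. Stromal markers (7 of 9 below 0) summed to 1518, 1679 and 1441 CPM in early luteal libraries, against 2699, 3212 and 1703 CPM in post-ovulatory libraries. These stromal sums did not overlap between the stages, narrowly at the closest pair (1679 CPM in early luteal replicate 2, 1703 CPM in post-ovulatory replicate 3). The stromal scores did overlap, at -0.07, -0.37 and -0.69 in early luteal libraries, against 0.39, 0.81 and -0.08 in post-ovulatory libraries. In 4 of the 9 genes all early luteal libraries lay below all post-ovulatory libraries, which 9.57% of all tested genes did. By edgeR 3 of the 9 were counted as lower at an unadjusted p under 0.05, against 3.54% of all tested genes. COL1A1, a chain of type I collagen, stood at 91.1, 135 and 104 CPM in early luteal tissue, against 496, 595 and 184 CPM in post-ovulatory libraries, with a log2 fold change of -1.95 ± 0.44. COL1A1 was called by DESeq2 (adjusted p = 0.00794) and not by edgeR (adjusted p = 0.554). The 8 tested endothelial markers (6 below 0) summed to 383 to 556 CPM in early luteal libraries and 327 to 511 CPM in post-ovulatory libraries. Immediate early genes, which respond to handling of tissue, were above 0 in 10 of 13, with sums of 606 to 2165 CPM in early luteal libraries and 454 to 1109 CPM in post-ovulatory libraries. The mesothelial and ovarian markers CALB2, CYP11A1 and INHA were at or near 0 in every library (at most 0.514 CPM), STAR reached 1.22 CPM, and the mesothelial marker UPK3B stood at 17.8 CPM in early luteal replicate 1 and 0.676 to 5.96 CPM in the other 5. The part of cell makeup, of RNA quality and of single libraries in the values of the subunits was not tested.

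In the pig assembly Sscrofa11.1 as annotated by RefSeq, the build also named for the deposited counts, 28 members matched a position by symbol, 27 of them at a single entry, and these 27 lay on 14 chromosomes. NDUFA1 lies at X:98219717-98223873, NDUFA9 at 5:65760078-65788703, SDHD at 9:39790654-39803602, COX5B at 3:56630297-56632107, COX7A2 at 1:90696746-90703407 and COX7C at 2:94345436-94347709, each as a protein-coding gene. Of the 27 entries, 8 overlap another annotated gene, among them NDUFA1 with RNF113A, NDUFA2 with TMCO6, SDHA with CCDC127 and NDUFB10 with RPS2 and RPL3L. NDUFA4 has a second entry, a pseudogene at 13:30448569-30449050 within SMARCC1. The kit marked strand, but no source used here says how the reads were counted, and the values of these overlapping genes and of subunits with near-identical copies are uncertain.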

How the data were processed

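RNA of 6 ampulla libraries was measured by sequencing. Per the labels' protocols, stranded mRNA libraries were prepared from total RNA (KAPA) for paired reads on a NextSeq2000. The build Sscrofa11.1 and the tools STAR, Trim Galore and FastQC 0.11.4 are named, per the submitters' processing notes. How reads were assigned to genes and strands, and with which annotation, is not given in the sources used here. The authors deposited 1 table of raw counts per Ensembl gene, 35670 rows of which 5622 had no count, without normalization. Its header lacks a tab after the first word, so columns were read by number and matched through the sequence of header words, in which early luteal replicate 3 is missing a letter. Symbols were found for 15623 identifiers.

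Counts were tested with edgeR 4.0.16 (R 4.3.3; TMM scaling, filterByExpr, robust quasi-likelihood, two-sided) over 17920 genes, with Benjamini-Hochberg adjustment over all of them and a threshold of 0.05. The common biological coefficient of variation was 0.485. The SE of a log2 fold change is its absolute value divided by the root of F. CPM use TMM scaling, and list scores add a prior count of 2. A deviation is the log2 CPM of a library minus the mean of the other 5. Library totals were 14056141, 8342520 and 14785020 counts in early luteal replicates 1 to 3, and 14716272, 7370723 and 30954222 in post-ovulatory replicates 1 to 3. No 2 libraries held equal counts in more than 1.23% of tested genes.

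The members and the 22 companion lists (331 genes, 292 with a row) were chosen with earlier results of these data known. In each complex the rule for named genes took the 3 members with the lowest p, the 1 with the highest mean level and any whose stages did not overlap (18 members), and in the other lists up to 3 genes with the lowest p and the 1 with the highest mean level. Other genes given by value were chosen after their values were seen. No transcript lengths were used, so the ratio of mitochondrially encoded to nuclear counts and the shares of the complexes are not corrected for length. The same holds for the choice of genes by highest mean level. Alternatives were 4 other scalings, no filter on low counts or a minimum of 1 CPM in 3 libraries, a replicate block, DESeq2 1.42.0, limma 3.58.1 voom with and without quality weights, each library left out in turn, and NDUFA4 counted with complex I. The code was tested on simulated data.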

Additional observations from a re-analysis of the deposited data

How the results depend on the processing

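The members' median log2 fold change stayed below 0 under every alternative run, from -0.30 (without post-ovulatory replicate 3) to -0.05 (without post-ovulatory replicate 1), and 0 members were called in any of them. Of all tested genes 0 were called, but 8 with no filter on low counts, 174 by DESeq2 and 9 by limma voom with sample quality weights, and the cause was not tested. Among the 18 named members, 4 values changed sign and 284 did not: SDHA was 0.087 with quality weights and 0.036 without early luteal replicate 2, SDHC was 0.031 without that library, and ATP5PB was 0.17 without post-ovulatory replicate 1. With each library left out in turn SDHA ran from -0.48 to 0.036, SDHC from -0.25 to 0.031 and ATP5PB from -0.48 to 0.17. Over the same fits, median log2 fold changes ran from -0.90 to 0.043 for mitochondrially encoded subunits, -0.23 to 0.0081 for assembly factors, -0.031 to 0.095 for biogenesis regulators, -0.20 to 0.13 for channels, carriers and cristae, -0.21 to 0.030 for cytosolic ribosomal proteins, -0.50 to -0.15 for the citrate cycle, -0.57 to -0.26 for mitochondrial ribosome and import, -0.19 to 0.0001 for the other nuclear subunits, -0.21 to 0.12 for ciliated, -0.18 to 1.11 for smooth muscle, -0.93 to 0.04 for endothelial, -0.67 to 0.42 for secretory, -1.08 to -0.30 for stromal, -2.51 to -0.22 for leukocyte and 0.013 to 1.75 for mesothelial and ovarian markers. Where this left 1 stage with 2 libraries, the spread was pooled over both stages.

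Replicate numbers were not shown to pair the libraries. Same-numbered libraries correlated in their deviations from the stage means at 0.052, -0.0818 and 0.13 (replicates 1, 2 and 3). With the replicate block edgeR called 0 genes, and the members' median log2 fold change was -0.21 with 30 of 40 below 0. Depth limits the statements most in early luteal replicate 2 and post-ovulatory replicate 2, the shallowest libraries. Early luteal replicate 2 had fewer genes with a count (21658) than post-ovulatory replicate 2 (23373), although its total was larger. The cause was not tested.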
